A study of Mus musculus with 4 samples.

Results

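The 10 genes described here encode the cone form of the phototransduction cascade, from opsin to channel and arrestin. They were taken by name from the list *Opn1sw*, *Opn1mw*, *Arr3*, *Gnat2*, *Gngt2*, *Gnb3*, *Pde6c*, *Pde6h*, *Cnga3* and *Cngb3*, and all 10 were found among the 24322 gene symbols of the files. RNA-seq libraries had been made from mTFP-positive cells that had been isolated from the retinas of 4 mice with a fluorescence-activated cell sorter, 1 library per mouse. Control mice (numbers 7984 and 3911) carried Raxflox/WT and *Rax* iCKO mice (numbers 7983 and 3914) carried Raxflox/flox. All 4 mice carried *Rlbp1-CreERT2* and *R26-CAG-LoxP-mTFP1*, were labelled 129S6 and received tamoxifen, so the controls also have 1 floxed *Rax* allele, Cre and the drug. By the study's methods, tamoxifen was given at P4 and retinas were taken at P14. Cre was driven by the promoter of *Rlbp1*, which is active in Müller glial cells, and the study also saw recombination in the retinal pigment epithelium. The comparison asks what loss of the homeobox gene *Rax* in cells marked at this age did to the RNA of the sorted fraction. Values are FPKM, fragment counts scaled to transcript length and to the mapped reads of the library, so levels can be set beside each other between genes.

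Cones are the photoreceptors of daylight and colour vision. In their outer segments, light-activated opsin switches on the G protein transducin, transducin releases a phosphodiesterase from its inhibitory subunit, the enzyme lowers cyclic GMP, and cyclic nucleotide-gated channels close. Arrestin then quenches the opsin. Rods run the same steps with a parallel set of proteins, most of them encoded by different genes. Müller glia span the retina and wrap the cell bodies of both photoreceptors, and they are the cells that the reporter was built to mark.

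The label of the fraction was checked against markers first. Summed FPKM of 12 Müller glial markers was 16045 and 12200 in the controls (mice 7984 and 3911, in this order throughout) and 10949 and 11045 in the *Rax* iCKO libraries (mice 7983 and 3914, likewise). Summed FPKM of 8 bipolar cell markers was 4405 and 10979 in the controls against 6072 and 9004, so bipolar cell RNA was abundant in all 4 libraries. Amacrine cell markers summed to between 4.47 and 10.4 FPKM, horizontal cell markers to between 0.618 and 0.931, ganglion cell markers to between 4.74 and 13.3 with *Pou4f1* at 0 in every library, microglial markers to between 2.83 and 28.8, astrocyte markers to between 1.89 and 3.95, and pigment epithelial markers to between 3.91 and 6.61. Of the 4 endothelial markers, *Kdr* was at between 228 and 464 FPKM, while *Pecam1*, *Cldn5* and *Cdh5* were each at 1.77 FPKM or less in every library. *Rax*, the targeted gene, was at 189 and 181 FPKM in the controls and at 111 and 98.4 in the *Rax* iCKO libraries. The mapped reads, estimated from the steps between low FPKM values, came to 12710000 for mouse 7984 and to between 9270000 and 9420000 for the other mice. In such bulk samples, fewer cells of a type and less RNA per cell cannot be told apart.

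Crx, the homeodomain protein that drives photoreceptor genes, binds a TAATCC core, and the study gives TAATT as a predicted binding site of Rax. Both were searched on both strands in RefSeq promoter windows of GRCm38.p6, from 250 bases before to 50 bases after each start, for the 6 of 10 genes that matched the table (*Opn1sw*, *Opn1mw*, *Gnat2*, *Pde6h*, *Cnga3* and *Arr3*). TAATT, which stood in 27.0% of 32851 windows, was found in 3 of the 6 genes. TAATCC, which stood in 7.06% of all windows, was found in 1 of them, *Gnat2*. For 6 rod counterparts that matched, TAATCC was found in 4 and TAATT in 2. TAATCT, a letter string searched only after the sequences had been seen, stood in 8.19% of all windows, in 2 of the 6 cone genes and in 0 of the 6 rod genes. The stretches from base -150 to base -4 are shown for both cone opsins and for cone arrestin, since these are the receptors and the shutoff protein of the cascade, and *Opn1mw* and *Arr3* put the 4 mice in the same order. *Opn1sw* lies at chr6:29380517-29380663 on the minus strand, *Opn1mw* at chrX:74127316-74127462 on the plus strand and *Arr3* at chrX:100605347-100605493 on the plus strand, and capitals mark a match to any of the searched strings on either strand.
Opn1sw: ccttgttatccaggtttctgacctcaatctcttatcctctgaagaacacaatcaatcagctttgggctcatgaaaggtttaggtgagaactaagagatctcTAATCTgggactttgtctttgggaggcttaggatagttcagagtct
Opn1mw: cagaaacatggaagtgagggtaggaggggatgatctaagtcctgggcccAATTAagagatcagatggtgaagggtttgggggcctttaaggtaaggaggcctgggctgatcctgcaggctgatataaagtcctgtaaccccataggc
Arr3: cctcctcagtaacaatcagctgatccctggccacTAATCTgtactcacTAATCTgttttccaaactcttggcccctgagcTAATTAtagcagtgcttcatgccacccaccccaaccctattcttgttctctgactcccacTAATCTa
In these stretches *Opn1sw* held TAATCT once, at base -49. *Opn1mw* held TAATT on the minus strand, at base -101. *Arr3* held TAATCT at bases -116, -102 and -10, and its TAATTA at base -70 contains TAATT on both strands. These matches are descriptions of the letters, and no binding was measured.

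RNA of all 10 cone genes was present in all 4 libraries, and no difference between control and *Rax* iCKO mice passed the test. Of the 10, 7 had a mean of at least 1 FPKM and were tested. Of these 7, 0 had a limma adjusted p under 0.05, beside 3 (0.0243%) of all 12363 genes tested. *Xist* was among these 3 (limma adjusted p = 0.0167). *Rax*, the targeted gene, was not (log2 fold change -0.82, limma unadjusted p = 0.00859). *Gnb3* lay far above the other 9 cone genes in every library. The rod genes set beside them were all lower on average in the *Rax* iCKO libraries, though 0 of them passed the test either. The ratio of summed cone to summed rod FPKM was 1.88-fold higher there and 1.44-fold without *Gnb3*, which held most of the cone sum. Each ratio had an exact permutation p of 0.333, the smallest possible. The ratio of a cone gene to its rod counterpart separated the groups for 3 of 9 pairs.

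Both cone opsins were detected at moderate levels. *Opn1sw*, the short-wavelength opsin, was at 25.4 and 32.5 FPKM in the controls and at 27.5 and 40.7 in the *Rax* iCKO libraries. The highest library was a *Rax* iCKO and the lowest a control, with overlap between the groups. *Opn1mw*, the middle-wavelength opsin, was at 22.3 and 12.9 FPKM in the controls and at 14.97 and 18.6 in the *Rax* iCKO libraries, which lay between the controls. The log2 fold change of FPKM + 1, *Rax* iCKO minus control, was 0.21 for *Opn1sw* (SE 0.27, 95% interval -0.44 to 0.87, n = 2 mice per group, limma adjusted p = 1) and -0.02 for *Opn1mw* (SE 0.31, interval -0.78 to 0.73, adjusted p = 1). The ratio of *Opn1sw* to *Opn1mw* was 1.14 and 2.52 in the controls and 1.84 and 2.19 in the *Rax* iCKO libraries, again inside the control range (exact two-sided permutation test, p = 1). A comparison of 2 with 2 mice cannot give a permutation p below 0.333.

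Of the 3 subunits of cone transducin, *Gnat2* encodes the alpha subunit that carries the GTP switch, *Gnb3* the beta and *Gngt2* the gamma subunit. *Gnat2* was at 29.3 and 39.8 FPKM in the controls and at 29.7 and 35.4 in the *Rax* iCKO libraries. The *Rax* iCKO values again lay inside the control range. *Gngt2* was at 53.0 and 90.5 FPKM in the controls and at 45.9 and 82.7 in the *Rax* iCKO libraries. Its values split by mouse number rather than by genotype, with mice 3911 and 3914 above mice 7983 and 7984. *Gnb3* was at 965.3 and 1472 FPKM in the controls and at 1377 and 1713 in the *Rax* iCKO libraries, and the groups overlapped. The log2 fold changes were -0.07 for *Gnat2* (SE 0.24, interval -0.66 to 0.52), -0.17 for *Gngt2* (SE 0.38, interval -1.09 to 0.76) and 0.37 for *Gnb3* (SE 0.39, interval -0.59 to 1.32), each with a limma adjusted p of 1.

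The effector enzyme was uneven in level. *Pde6h*, which encodes the inhibitory gamma subunit of the cone phosphodiesterase, was at 14.3 and 16.6 FPKM in the controls and at 16.0 and 12.6 in the *Rax* iCKO libraries. *Pde6c*, which encodes the catalytic subunit, was at 0.739 and 1.08 FPKM against 0.788 and 0.958. Both genes overlapped between the groups. The log2 fold change of *Pde6h* was -0.11 (SE 0.24, interval -0.68 to 0.47, limma adjusted p = 1). *Pde6c* had a mean under the minimum of 1 FPKM set for the test, and without that minimum its log2 fold change was -0.02 (interval -0.52 to 0.47).

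Both channel genes lay under the same minimum and rested on few reads. *Cnga3*, the alpha subunit of the cone channel, was at 0.304 and 0.128 FPKM in the controls and at 0.505 and 0.576 in the *Rax* iCKO libraries, or about 13, 4, 16 and 18 reads by the depth estimate. Among the 10 genes it was the 1 gene with both *Rax* iCKO libraries above both controls, beside 15.4% of the 12363 genes tested. Exact Poisson 95% limits, which cover counting error only, were 0.162 to 0.520 FPKM and 0.0350 to 0.329 FPKM for the controls, and 0.289 to 0.820 FPKM and 0.341 to 0.910 FPKM for the *Rax* iCKO libraries. The limits of mouse 7984 overlapped those of both *Rax* iCKO mice, and the limits of mouse 3911 overlapped those of mouse 7983 but not those of mouse 3914. Without the minimum, limma gave *Cnga3* a log2 fold change of 0.34 (interval 0.01 to 0.68, unadjusted p = 0.0448, adjusted p = 1). *Cngb3*, the beta subunit, was at 0.749 and 0.908 FPKM in the controls and at 1.15 and 0.50 in the *Rax* iCKO libraries, the highest and the lowest value being those of the *Rax* iCKO mice (log2 fold change -0.02, interval -0.62 to 0.57).

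*Arr3*, which encodes cone arrestin, was at 12 and 5.95 FPKM in the controls and at 7.41 and 7.97 in the *Rax* iCKO libraries. The *Rax* iCKO values lay between the controls, and the log2 fold change was -0.13 (SE 0.35, interval -0.98 to 0.71, limma adjusted p = 1). *Arr3* and *Opn1mw* put the 4 mice in the same order, 7984, 3914, 7983 and 3911 from high to low, and both genes are X-linked. *Xist*, which coats and silences an X chromosome, had values of 24.5 and 21.2 FPKM in the controls and of 0.0119 and 0.00605 in the *Rax* iCKO libraries. The Y-linked genes *Eif2s3y*, *Ddx3y*, *Uty* and *Kdm5d* were at 43.7, 12.4, 5.92 and 4.78 FPKM in mouse 7983 and at 0 in the other libraries, so mouse 3914 had almost no *Xist* and no Y-linked RNA. The part of these differences in the values of *Arr3* and *Opn1mw* was not tested. *Xist* split the mice just as genotype did, so the 2 differences cannot be told apart in any comparison of the groups given here.

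**Figure D1:**
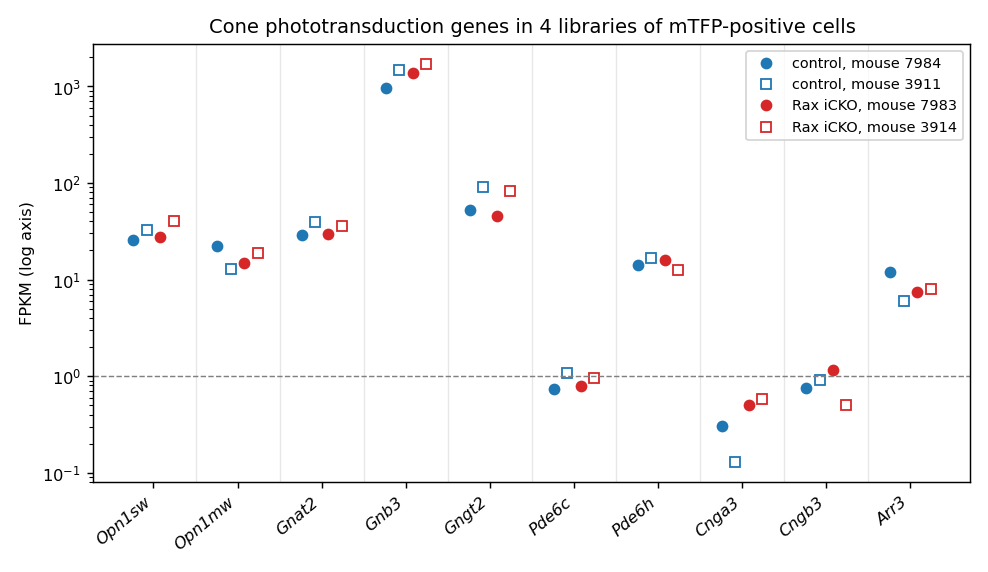
FPKM on a log axis of each of the 10 cone phototransduction genes in the 4 libraries, 1 point per mouse (blue, control; red, *Rax* iCKO; filled circles, mice 7984 and 7983; open squares, mice 3911 and 3914). The dashed line is the minimum mean of 1 FPKM for the test. *Gnb3* stood between 965.3 and 1713 FPKM, and *Pde6c*, *Cnga3* and *Cngb3* lay near or under the line. Blue and red points overlapped for every gene except *Cnga3*, in which red lay above blue, as in 15.4% of all genes tested.

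At an unadjusted p under 0.05 limma also called 0 of the 7 genes tested, where the smallest value was 0.386, beside 354 (2.86%) of all genes. In 0 of the 7 did both *Rax* iCKO libraries lie above both controls, or below them, whereas 15.4% of all genes lay above and 14.1% below. The log2 fold change was under 0 for 5 of the 7 and over 0 for 2, with a median of -0.07 beside -0.004 for all genes. The 95% intervals were narrowest for *Pde6h* and *Gnat2*, at -0.68 to 0.47 and -0.66 to 0.52, and widest for *Gnb3*, at -0.59 to 1.32. These intervals are not adjusted over genes. The 7 genes rested on an estimated 82.3 reads or more in each library.

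**Figure D2:**
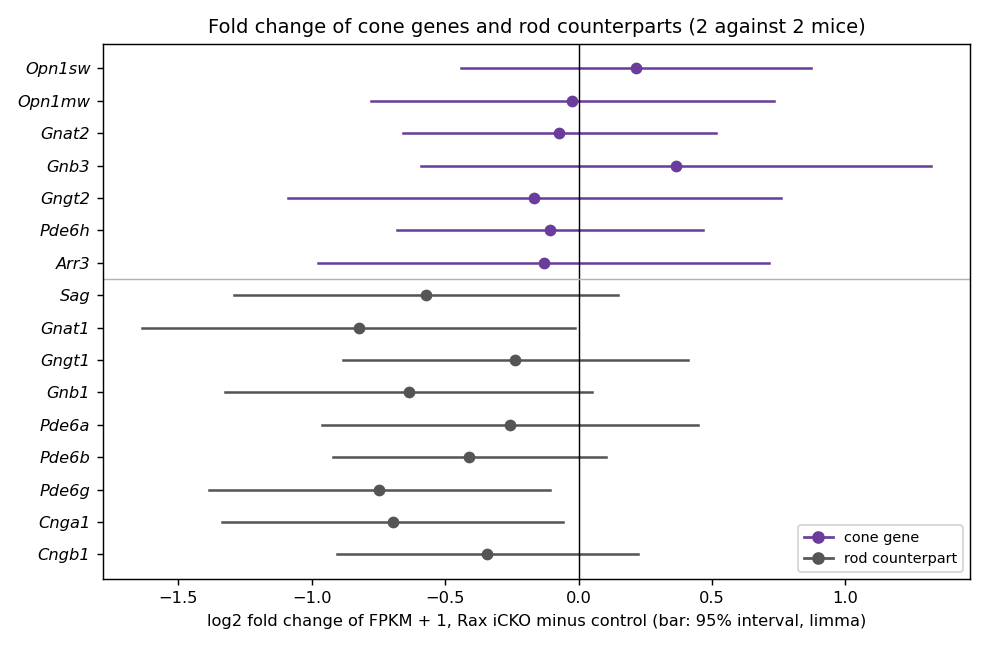
Log2 fold change of FPKM + 1, *Rax* iCKO minus control, of the 7 cone genes tested (purple) and of 9 rod counterparts (grey), with limma 95% intervals as bars and 2 mice per group. All 7 cone intervals span 0 and their points lie between -0.17 and 0.37, while all 9 rod points lie between -0.82 and -0.24.

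In order of mean FPKM over the 4 libraries, the genes were *Gnb3* (1382), *Gngt2* (68.0), *Gnat2* (33.6), *Opn1sw* (31.5), *Opn1mw* (17.2), *Pde6h* (14.9), *Arr3* (8.33), *Pde6c* (0.892), *Cngb3* (0.827) and *Cnga3* (0.378). Ranges over the libraries overlapped between *Gnat2* and *Opn1sw*, between *Opn1mw* and *Pde6h*, between *Pde6c* and *Cngb3*, and between *Cngb3* and *Cnga3*, so these neighbours cannot be ordered beyond their spread. The other neighbours did not overlap.

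*Gnb3* stood apart from the rest of the cascade in level. It held 85.9% and 88.0% of the summed FPKM of the 10 genes in the controls and 90.5% and 89.5% in the *Rax* iCKO libraries. By mean FPKM in the controls it ranked 37 among all genes, whereas *Gngt2*, the next of the 10, ranked 1594 and *Gnat2* ranked 3121. The 3 subunits of 1 heterotrimer were thus far from equal in level. *Gnb3* is also expressed in ON bipolar cells, where its product pairs with the gamma subunit encoded by *Gng13*. *Gng13* was at 1337 and 2742 FPKM in the controls and at 1836 and 2278 in the *Rax* iCKO libraries. *Pcp2*, a bipolar cell gene, was at 2071 and 6515 FPKM against 2727 and 4846. Both had the same 2 high libraries as *Gnb3*, those of mice 3911 and 3914, but the highest was mouse 3911 for these 2 genes and mouse 3914 for *Gnb3*. Of the 8 bipolar markers, 4 were highest in mouse 3911, 2 in mouse 3914 and 2 in mouse 7983. *Trpm1*, the ON bipolar cation channel, was at 178 and 213 FPKM against 293 and 327, with both *Rax* iCKO libraries above both controls (log2 fold change 0.67, unadjusted p = 0.0330, adjusted p = 1). Of the 8 bipolar markers 7 had a log2 fold change over 0, with a median of 0.27. In 3 of the 8 both *Rax* iCKO libraries lay above both controls, beside 15.4% of all genes. The ratio of *Gnb3* to *Gng13* was 0.722 and 0.537 in the controls and 0.750 and 0.752 in the *Rax* iCKO libraries (exact permutation test, p = 0.333, the smallest possible). Relative to the summed 8 bipolar markers, *Gnb3* was at 0.219 and 0.134 in the controls and at 0.227 and 0.190 in the *Rax* iCKO libraries, with overlap between the groups (exact permutation test, p = 0.667). The part of bipolar cell RNA in the level of *Gnb3* was not tested.

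**Figure D3:**
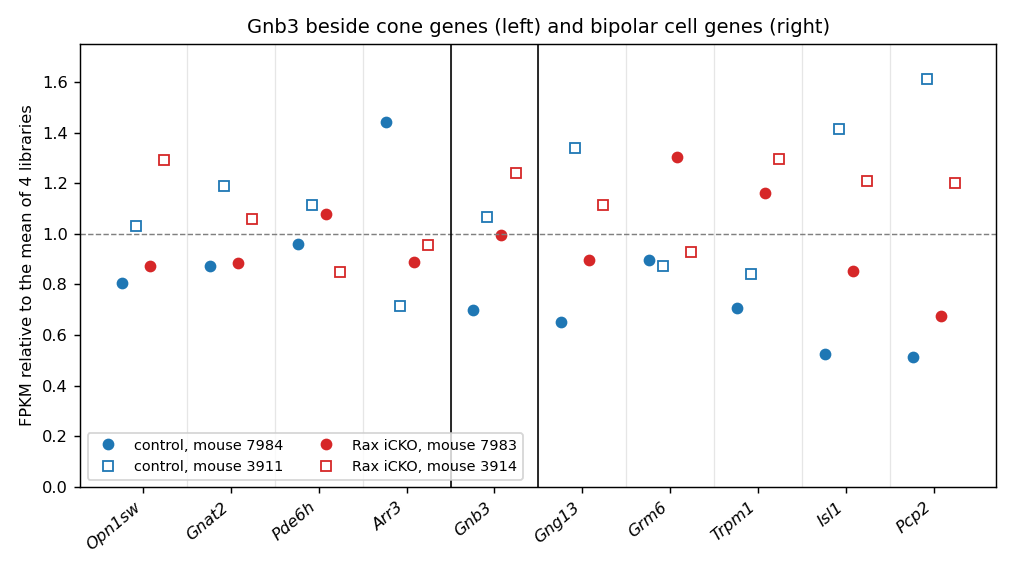
FPKM of 4 cone genes (left), *Gnb3* (middle) and 5 bipolar cell genes (right) in each library, divided by the mean of the gene over the 4 libraries (dashed line, 1). *Gnb3*, the cone genes *Opn1sw* and *Gnat2*, and the bipolar cell genes *Gng13*, *Trpm1*, *Isl1* and *Pcp2* were lowest in mouse 7984 (filled blue). *Arr3* and *Grm6* were lowest in mouse 3911 and *Pde6h* in mouse 3914.

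Because 1 gene made up most of the sum, the sum of the 10 genes was also taken without it. The full sum was 1123 and 1672 FPKM in the controls and 1521 and 1913 in the *Rax* iCKO libraries, a log2 difference of 0.32 (exact permutation test, p = 0.667). Without *Gnb3*, the other 9 genes summed to 158 and 200.4 FPKM in the controls and to 144 and 200.2 in the *Rax* iCKO libraries, a log2 difference of -0.07 (exact permutation test, p = 0.667). Both sums overlapped between the groups. The mice fall into 2 runs of nearby numbers, 7983 with 7984 and 3911 with 3914, which the labels do not call a batch. The sum of the 9 was higher in mice 3911 and 3914 than in mice 7983 and 7984. The libraries of mice 3911 and 3914 also lay above those of mice 7983 and 7984 for 4 of the 7 genes tested (*Opn1sw*, *Gnat2*, *Gnb3* and *Gngt2*), as for 29.1% of all genes.

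Cone genes were then set beside rod genes of the same steps. Rods outnumber cones by far in the mouse retina, and both lie in the same layer. The 9 rod counterparts reported here summed to 1984 and 2061 FPKM in the controls and to 1423 and 1254 in the *Rax* iCKO libraries, which lay under both controls (ratio of the means on the log scale 0.661, exact permutation test, p = 0.333, the smallest possible). All 9 rod genes had a log2 fold change under 0, with a median of -0.57, and for 8 of the 9 the *Rax* iCKO values were under those of either control, *Gngt1* being the exception, beside 14.1% of all genes. An unadjusted p under 0.05 was reached by 3 of the 9, beside 2.86% of all genes, and 0 of the 9 passed an adjusted p of 0.05. *Gnat1*, rod transducin alpha, was at 386 and 262 FPKM in the controls and at 224 and 143 in the *Rax* iCKO libraries (log2 fold change -0.82, unadjusted p = 0.0470). It was lowest in mouse 3914, in which *Opn1sw* was highest. *Pde6g*, the rod inhibitory subunit, was at 439 and 395 FPKM against 280 and 219 (-0.75, unadjusted p = 0.0290). *Cnga1*, the rod channel alpha subunit, was at 10.7 and 12.4 FPKM against 7.93 and 5.67 (-0.70, unadjusted p = 0.0370), opposite in direction to *Cnga3*. Among the others, *Sag*, rod arrestin, was at 548 and 737 FPKM against 403 and 453, and *Gnb1*, rod transducin beta, at 274 and 248 against 206 and 136. *Gngt1*, rod transducin gamma, was at 237 and 329 FPKM against 234 and 240. The catalytic subunits *Pde6a* and *Pde6b* and the channel subunit *Cngb1* had log2 fold changes of -0.26, -0.41 and -0.34. *Nrl* and *Nr2e3* encode transcription factors that set rod identity. *Nrl* was at 26.2 and 16.7 FPKM against 17.1 and 8.97, with overlap between the groups. *Nr2e3* was at 38.5 and 40.3 FPKM against 31.3 and 22.9, and neither reached an unadjusted p under 0.05.

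Within each library, the ratio of the summed cone genes to the summed rod genes was 0.566 and 0.812 in the controls and 1.07 and 1.53 in the *Rax* iCKO libraries, 1.88-fold higher on average (exact permutation test, p = 0.333). Both *Rax* iCKO libraries lay above both controls. Without *Gnb3* the ratio was 0.0797 and 0.0972 against 0.101 and 0.160, or 1.44-fold higher (exact permutation test, p = 0.333), with mouse 3911 close to mouse 7983. Mouse 7983 exceeded mouse 7984 in the ratio with *Gnb3* by 0.92 on the log2 scale, and mouse 3914 exceeded mouse 3911 by 0.91. The log2 difference was 0.32 for the cone sum, whose groups overlapped, and -0.60 for the rod sum, whose groups did not.

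Over 9 pairs of a cone gene and its rod counterpart (*Pde6a* and *Pde6b* both taken for *Pde6c*), the log2 difference of the ratio was over 0 for 9. The pairs share libraries and, in part, genes. Within both runs of mouse numbers the ratio rose for 5 of the 9. *Gngt2* to *Gngt1* and *Arr3* to *Sag* were lower in mouse 7983 than in mouse 7984. *Pde6c* to *Pde6a* and *Cngb3* to *Cngb1* were lower in mouse 3914 than in mouse 3911. For 3 pairs both *Rax* iCKO libraries lay above both controls and for 0 pairs below. The ratio of *Gnb3* to *Gnb1* was 3.53 and 5.93 in the controls and 6.69 and 12.6 in the *Rax* iCKO libraries. That of *Pde6h* to *Pde6g* was 0.0326 and 0.0421 against 0.0573 and 0.0577, the pair with the least spread within the *Rax* iCKO group. That of *Cnga3* to *Cnga1*, on few *Cnga3* reads, was 0.0285 and 0.0104 against 0.0637 and 0.102. For *Gnat2*, *Gngt2*, *Pde6c*, *Cngb3* and *Arr3* the ratios overlapped between the groups. Among these pairs *Gnb3* was the 1 cone gene above its rod counterpart, with ratios between 3.53 and 12.6.

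**Figure D4:**
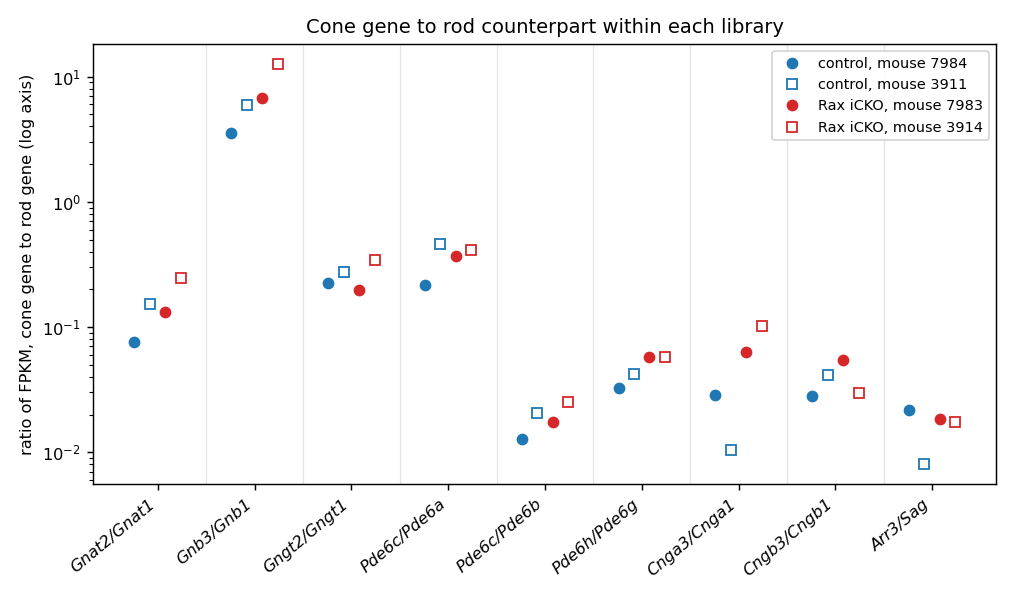
Ratio of the FPKM of a cone gene to that of its rod counterpart within each library, on a log axis, for 9 pairs (symbols as for the plot of FPKM by gene). Red points lie above blue points for *Gnb3*/*Gnb1*, *Pde6h*/*Pde6g* and *Cnga3*/*Cnga1*.

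Genes that regulate the cascade or serve both rods and cones were listed separately, and 17 of the 19 reported here were tested. Of these, 11 had a log2 fold change under 0 and 6 over 0, with a median of -0.15, and 0 passed an adjusted p of 0.05. At an unadjusted p under 0.05, 3 of the 17 were lower and 0 were higher in the *Rax* iCKO libraries, beside 2.86% of all genes in either direction. The lower ones were *Guca1b*, a guanylate cyclase activator, at 30.7 and 29.3 FPKM against 18.0 and 18.7 (log2 fold change -0.68, unadjusted p = 0.0140), *Rcvrn*, which encodes recoverin, at 147 and 128 against 97.2 and 71.9 (-0.71, unadjusted p = 0.0268), and *Pdc*, which encodes phosducin, at 170 and 196 against 136 and 108 (-0.58, unadjusted p = 0.0491). The largest log2 fold change of the list ran the other way, in *Rgs9bp*, an anchor of the complex that turns transducin off, named after its values were seen. It was at 6.05 and 3.83 FPKM against 10.9 and 7.20 (0.76, adjusted p = 1), with both *Rax* iCKO libraries above both controls. The most abundant of the list, *Unc119* and *Gnb5*, were at 475 and 674 FPKM against 514 and 682 and at 203 and 313 against 226 and 320, with overlap between the groups.

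Transcription factors of photoreceptors, not of cones alone, and genes enriched in cones gave no call either. Of 11 listed, 9 were tested, 8 with a log2 fold change over 0 and 1 under 0, with a median of 0.22, and 0 had an unadjusted p under 0.05. *Otx2*, a homeobox gene of photoreceptors and bipolar cells, was at 142 and 197 FPKM in the controls and at 210 and 234 in the *Rax* iCKO libraries. *Crx* was at 85.6 and 87.7 FPKM against 103.6 and 101.5. *Thrb*, the thyroid hormone receptor that directs the middle-wavelength opsin, was at 5.17 and 4.16 FPKM against 5.46 and 5.77. In these 3 of the 9 genes both *Rax* iCKO libraries lay above both controls, beside 15.4% of all genes. *Gulo*, a gene enriched in cones by the list, was at 1.749 and 1.095 FPKM against 0.769 and 0.624, the 1 gene of the list with both *Rax* iCKO libraries below both controls and the one with its largest log2 fold change in size (-0.50). *Thrb* and *Gulo* are named after their values were seen. *Rxrg*, its partner in cones, had a mean under the minimum, as had *Sall3*.

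Markers of the Müller glia themselves were also lower on average. Of 12 Müller glial markers, 11 had a log2 fold change under 0, with a median of -0.31, and 0 had an adjusted p under 0.05. *Apoe* was at 5041 and 4232 FPKM in the controls and at 3901 and 4193 in the *Rax* iCKO libraries, and *Rlbp1*, whose promoter drove Cre, at 2616 and 2159 against 1292 and 1560. In these and 2 more of the 12 the *Rax* iCKO values were under those of either control, beside 14.1% of all genes, and in the other 8 the groups overlapped. FPKM are relative to the mapped reads of each library, and the part of sample make-up in the cone and rod values was not tested.

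By the GENCODE annotation of GRCm38, *Opn1sw* lies on chromosome 6 at 29376671 to 29388468 on the minus strand, and its exons overlap those of *Calu* on the other strand. Among 2590 windows of 1 read length from its transcripts, 292 (11.3%) also occurred in *Calu* transcripts on either strand, so reads there are of uncertain origin where counting ignores strand. *Gngt2*, on chromosome 11 at 95837216 to 95845734 on the plus strand, shared 0.914% of its windows with *Abi3*. The other 8 genes shared 0 windows with another gene, *Pde6h* included, whose exons overlap *Arhgdib* on the other strand. *Gnb3* lies on chromosome 6 at 124834240 to 124840275, *Gnat2* on chromosome 3 at 108092789 to 108101432, *Pde6h* on chromosome 6 at 136923832 to 136968865 and *Pde6c* on chromosome 19 at 38132781 to 38183958. *Cnga3* lies on chromosome 1 at 37214434 to 37263384, *Cngb3* on chromosome 4 at 19280850 to 19510623, and *Opn1mw* and *Arr3* on the X chromosome at 74127464 to 74150760 and 100605497 to 100618493. Of the rod counterparts, *Sag* shared 2.50% of its windows with genes outside the cascade. No cone gene shared a window with its rod counterpart, so reads of this length were not split between the 2 sets by identical sequence.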

How the data were processed

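Single-end reads of 101 bases had been mapped to mm10, and FPKM per gene were deposited by the authors, 1 file per library. Per the submitters' notes the tools were TopHat2 2.1.1, Bowtie2 2.2.8, SAMtools 0.1.18 and Cuffdiff 2.2.1; the paper's methods name other versions and another RNA isolation. Whether counting used strand is not given in the sources used here. FPKM were used as deposited. Mapped reads were estimated from the FPKM steps of 595 low genes. Mouse 7984 had 1.35 times the reads of mouse 7983, and mice 3911 and 3914 had 0.983 and 0.987 times. These reads are estimates, so no count test was run.

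Groups (2 control, 2 *Rax* iCKO mice, from the labels) entered limma 3.58.1 (R 4.3.3), with lmFit and a trended eBayes, as log2(FPKM + 1). Genes needed a mean of 1 FPKM, which left 12363, and p-values were adjusted by Benjamini-Hochberg over these. This scale understates the change of low genes. Sums and ratios were compared with two-sided exact permutation tests in scipy 1.17.1. P-values measure the spread between these mice. On simulated data with 200 of 12363 genes shifted by 2 on the log2 scale, limma called 197 of them and 18 unchanged genes. The shifted genes were drawn from the more abundant ones, and the shift exceeded every log2 fold change of the cone and rod genes. The simulation therefore does not tell how often changes of their size would be called. Shared sequence was counted in GENCODE transcripts.

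The genes and lists were chosen with earlier results of these data known, and some listed genes are not reported here and were left out of their lists' counts and sums. Named were the 10 cone genes, their rod counterparts, *Rax*, *Xist* and Y-linked genes, and, of every other list, genes with an unadjusted p under 0.05 and the 2 most abundant, except that the amacrine, horizontal, ganglion, microglial, astrocyte and pigment epithelial lists are given by their sums and the endothelial list by all its genes. *Thrb*, *Gulo*, *Rgs9bp*, *Isl1*, *Grm6*, *Nrl*, *Nr2e3*, *Pou4f1*, *Sall3* and *Rxrg* were named beyond the rule or because their list was short. Alternatives were each mouse left out, a block by nearby mouse numbers, pseudocount 0.1, no minimum or a minimum of 5, an untrended prior, equal medians and quantile normalization.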

Additional observations from a re-analysis of the deposited data

How the results depend on the processing

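Under the other limma settings that kept all 4 mice, 0 of the 7 cone genes tested were called. *Gnb3* kept a log2 fold change over 0 under all 11 other settings, from 0.061 without mouse 7984 to 0.67 without mouse 3911. Leaving out 1 mouse in turn, which leaves 1 arm with a single mouse assumed to vary like the others, moved the value across 0 for the other 6, over -0.060 to 0.49 for *Opn1sw*, -0.40 to 0.35 for *Opn1mw*, -0.29 to 0.14 for *Gnat2*, -0.59 to 0.25 for *Gngt2*, -0.27 to 0.053 for *Pde6h* and -0.58 to 0.32 for *Arr3*. Leaving out 1 mouse also moved the median of the 7 cone genes over -0.17 to 0.14, that of the rod counterparts over -0.55 to -0.34 and that of the Müller glial markers over -0.60 (without mouse 3911) to -0.049 (without mouse 7984). Quantile normalization gave the rod counterparts a median of -0.38 and the Müller glial markers a median of -0.11. It left 1 of the 7 cone genes, *Gnb3*, with groups that did not overlap (log2 fold change 0.58, limma unadjusted p = 0.0279). Without the most abundant gene of the list the log2 difference of the summed cone genes was -0.069. That of the cone to rod ratio without the most abundant gene of each list was 0.54. The log2 difference of the full cone sum ran from 0.029 without mouse 7984 to 0.60 without mouse 3911. A minimum of 5 FPKM gave the other phototransduction genes a median of -0.30. The cause of these shifts was not tested. With the run of mouse numbers (7983 with 7984, 3911 with 3914) as a replicate block, 0 of the 7 cone genes were called, with a smallest adjusted p of 0.325, and 2 of the 9 rod counterparts were called, *Gnat1* (adjusted p = 0.0223) and *Pde6g* (0.0418). The labels tie no mice together, so this pairing rests on nearby numbers alone. Over all genes, limma called 3 in the comparison reported, 71 with the block, between 17 and 20 with 1 mouse left out, 4 with pseudocount 0.1 or quantile normalization, 6 with equal medians and 0 with no minimum (624 at an unadjusted p under 0.05) or a minimum of 5 FPKM (279). The depth left *Pde6c*, *Cnga3* and *Cngb3* with estimated reads between 4 and 49 a library, too few for more than their values.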
